A study of Arabidopsis thaliana with 18 samples.

Results

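A pair of Arabidopsis thaliana mutants of phenylpropanoid metabolism were compared directly, without ultraviolet exposure: tt4, described by the submitters as impaired in flavonoid biosynthesis, and sng1, described as impaired in making sinapoyl malate. The members were the arrays labelled with these genotypes and with continuous light (CO), which were 3 tt4 arrays and 3 sng1 arrays of the 18 in the series. All plants carried the Col-0 background, and the wild type (WT) was Col-0 without either mutation. No allele is named for either mutant. The other arrays were 3 of WT in CO and 9 of tt4, sng1 and WT after 24 h of ultraviolet light (UV). Each array held RNA from the aerial region of 1 plant aged 18 days, grown at 22 °C on medium with 1% sucrose. Days of 16 h light with 8 h darkness were kept for 17 days, and the CO plants then had 24 h of light on day 18, which added 8 h. Transcripts were measured on an Affymetrix array, in which a set of short probes stands for a transcript and is called a probe set.

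Flavonoids and sinapate esters are phenylpropanoids made from phenylalanine, and both kinds of compound absorb ultraviolet light in the leaf epidermis. TT4 encodes chalcone synthase, the enzyme at the entry to the flavonoid pathway, so tt4 plants lack flavonols and anthocyanins. SNG1 encodes a serine carboxypeptidase-like acyltransferase that moves the sinapoyl group from sinapoylglucose to malate, and plants without it keep sinapoylglucose in the leaf. The comparison asks how the transcripts of plants blocked in either branch differ when the light holds no added ultraviolet. TT4 and SNG1 have no named probe set in the annotation table, and their own transcripts were not analysed here as a check of the labels. Of the 22746 probe sets, 8730 are unnamed here, and the gene behind an unnamed one is not known here. It could be a mutated gene itself, so a difference at an unnamed probe set cannot be read as that of a gene other than TT4 or SNG1.

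Values below are signals in arbitrary units after normalisation between arrays, and differences are tt4 minus sng1 on the log2 scale unless another pair is named. Signals under 16 were set to 16, written below as being at the floor. A probe set was called when its adjusted p in limma was under 0.05. Each array stands for 1 plant. The p-values rest on the spread between single plants within groups, pooled over all 18 arrays and moderated across probe sets. They do not rest on the spread of the tt4 and sng1 plants in CO alone.

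The tt4 plants differed more among themselves than the sng1 plants did. Correlations of log2 signals ran from 0.978 to 0.983 among the tt4 arrays, from 0.987 to 0.991 among the sng1 arrays and from 0.977 to 0.988 between the genotypes. Among the 14614 probe sets with a mean log2 signal of at least 6, the median standard deviation (SD) was 0.187 in tt4, 0.126 in sng1 and 0.172 in WT, and the SD was higher in tt4 than in sng1 for 68.6% of them. In a principal component analysis of the 6 arrays, tt4 replicate 2 stood apart on the first component (32.8% of the variance) and tt4 replicate 3 on the second (24.7%). The actin 3′ to 5′ log2 ratio of the control probe sets, a sign of RNA integrity and labelling, was 2.03 ± 0.29 in tt4 and 2.45 ± 0.09 in sng1 (SD, n = 3 each, exact two-sided permutation p = 0.1, the smallest that 3 against 3 allows). A second actin pair had a ratio of 0.89 ± 0.18 in tt4 and 0.75 ± 0.06 in sng1, the opposite order (SD, n = 3 each, exact two-sided permutation p = 0.3). The glyceraldehyde-3-phosphate dehydrogenase ratio was 0.53 ± 0.14 in tt4 and 0.50 ± 0.02 in sng1 (SD, n = 3 each, exact two-sided permutation p = 0.8). Their part in the results was not tested. The running code in the sample titles puts the tt4 arrays in CO before the sng1 arrays in CO, so that the order of the code and the genotype cannot be told apart. The summed signal of 8 nuclear photosynthesis genes was 103200 to 112000 in tt4 and 98880 to 104500 in sng1. The 1 measured root marker, EXPA7, lay between the floor and 30.5 in tt4 and between 28.3 and 43.2 in sng1, and the 1 measured shoot meristem marker, CLV3, was at the floor on all 6 arrays.

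Between tt4 and sng1 in CO, 11 of 22746 probe sets were called (0.0484%), of which 9 were higher (0.0396%) and 2 lower (0.00879%) in tt4. Without adjustment, 1465 probe sets (6.44%) had a p under 0.05, with 866 higher and 599 lower. The signals of the 3 tt4 and 3 sng1 plants did not overlap for 2401 probe sets (10.6%), of which 1471 were higher (6.47%) and 930 lower (4.09%) in tt4. Of the 11 called probe sets, 6 had 1 gene in the annotation table, 1 had several genes and 4 were unnamed here. Only 5 of the 11 had no signal at the floor on any of the 6 arrays. The 2 probe sets with the largest differences, 267262_at and 252331_s_at, were low in sng1 and near the WT level in tt4. In whole shoots, fewer cells of a type and less RNA per cell cannot be told apart. When only the 6 arrays compared were fitted, no probe set was called, with 1645 at an unadjusted p under 0.05, and when the 9 CO arrays alone were fitted none was called either, with 1452 at an unadjusted p under 0.05. Leaving out 1 array at a time gave 4 to 20 calls: without tt4 replicate 1, 2 or 3 the counts were 11, 7 and 20, and without sng1 replicate 1, 2 or 3 they were 5, 7 and 4. Of the 11 probe sets, 5, 3 and 9 kept their call without tt4 replicate 1, 2 or 3, and 2, 3 and 3 kept it without sng1 replicate 1, 2 or 3. Scaling moved the balance of calls, to 2 higher and 2 lower with the deposited signals as given and to 3 higher and 2 lower with a floor of 64.

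**Figure D1:**
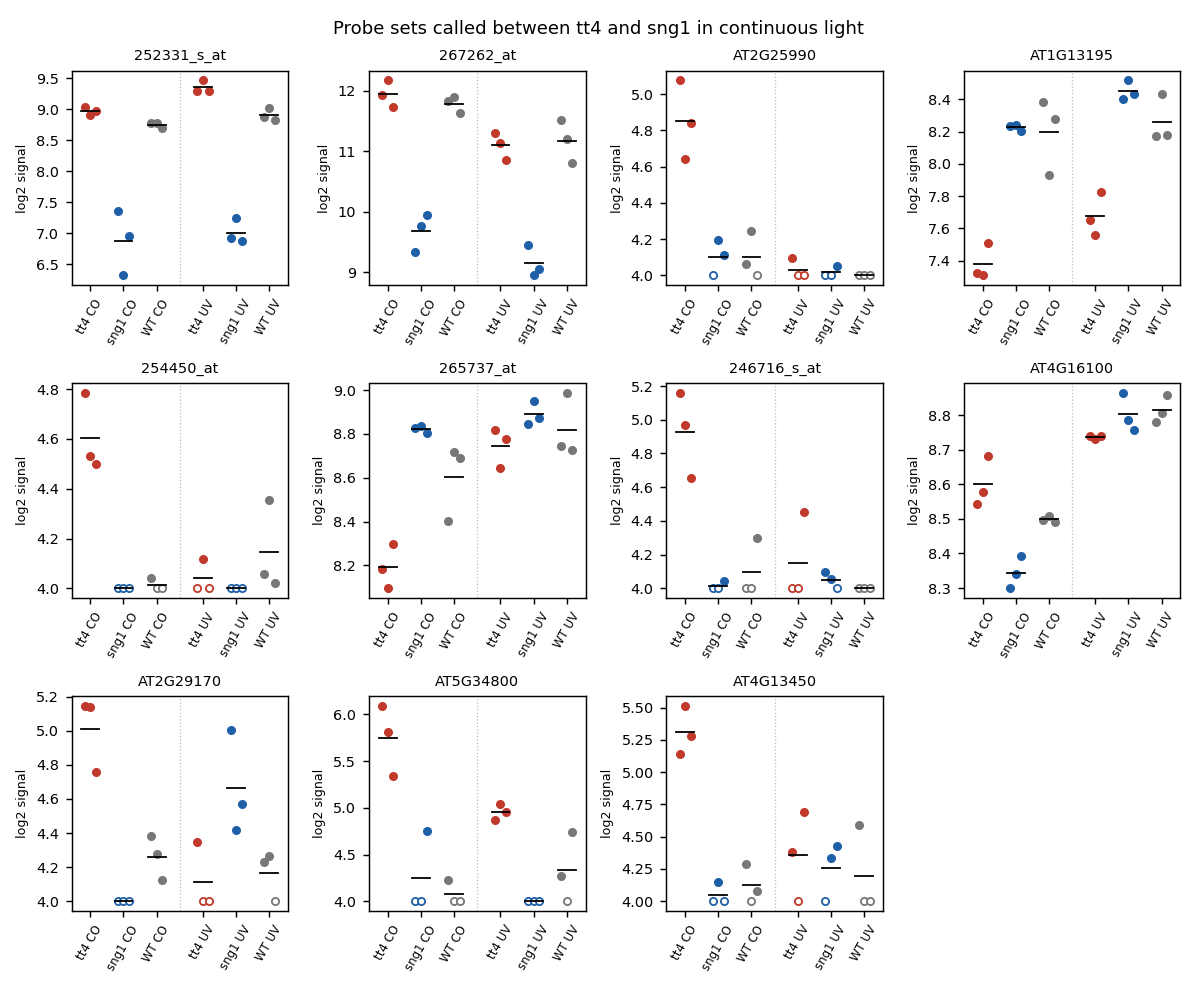
Log2 signal of the 11 called probe sets in the 3 plants of tt4, sng1 and WT in CO (left of the dotted line) and under UV (right of it). Points are single plants, open points lie at the floor, lines are group means, and the vertical axes differ between panels and do not start at 0. In CO the 3 tt4 plants are separate from the 3 sng1 plants in every panel, and 6 panels hold sng1 points at the floor.

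Unnamed probe set 267262_at had the largest called difference. Its signal was 3893, 4593 and 3388 in the 3 tt4 plants, 648, 869 and 985 in the 3 sng1 plants and 3634, 3797 and 3159 in the 3 WT plants. The sng1 plants were all below every tt4 and WT plant, and tt4 and WT overlapped. The difference was 2.26 ± 0.21 (SE, limma adjusted p = 0.00097), a 4.78-fold higher signal in tt4. Against WT, the difference was 0.16 for tt4 (adjusted p = 1) and -2.10 for sng1 (adjusted p = 0.0028), and these comparisons share the tt4 or the sng1 arrays with the one above.

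Unnamed probe set 252331_s_at showed the same order at lower signals. It had 528, 482 and 504 in the tt4 plants, 165, 79.7 and 124 in the sng1 plants and 440, 438 and 417 in the WT plants. Every sng1 plant was again below all plants of the other genotypes. Its difference was 2.10 ± 0.19 (SE, limma adjusted p = 0.00097), or 4.28-fold, and sng1 was 1.87 below WT (difference -1.87, adjusted p = 0.0028), while tt4 differed from WT by 0.22 (adjusted p = 1). Both probe sets were called in all fits that held the 18 arrays or left out 1 array. In the fit of the 9 CO arrays alone the adjusted p was 0.16 for 267262_at and 0.19 for 252331_s_at.

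Of the probe sets paired with several genes, 2 more had an adjusted p under 0.1, a limit chosen after the values were seen, and both had the same order. The probe set 245218_s_at, which the table pairs with several genes, had 956, 979 and 1249 in the tt4 plants, 581, 650 and 578 in the sng1 plants and 1131, 1122 and 924 in the WT plants. Its difference was 0.81 ± 0.13 (SE, limma adjusted p = 0.059). The probe set 245219_at, also paired with several genes, had 2869, 2149 and 2587 in the tt4 plants, 1507, 1419 and 1558 in the sng1 plants and 2846, 2622 and 2474 in the WT plants, a difference of 0.75 ± 0.13 (SE, limma adjusted p = 0.089). In both, the sng1 plants lay below all tt4 and WT plants. Against WT, the difference for sng1 was -0.81 at 245218_s_at and -0.82 at 245219_at (limma adjusted p = 0.12 for each).

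Lower signals in tt4 were called for 2 probe sets, both well above the floor. AT1G13195, a locus without a symbol in the RefSeq table, had 160, 158 and 182 in the tt4 plants, 301, 303 and 295 in the sng1 plants and 334, 244 and 310 in the WT plants. The tt4 plants were below every sng1 and WT plant, and the sng1 plants lay within the range of WT. The difference was -0.85 ± 0.11 (SE, limma adjusted p = 0.020). Relative to WT it was -0.82 for tt4 (adjusted p = 0.035) and 0.03 for sng1 (adjusted p = 1). The unnamed probe set 265737_at had 291, 273 and 314 in the tt4 plants, 455, 457 and 447 in the sng1 plants and 338, 421 and 414 in the WT plants. The WT plants fell between the mutants, and the difference of -0.63 ± 0.09 (SE, limma adjusted p = 0.033) was not called in either mutant against WT (-0.41 for tt4 with adjusted p = 0.34, and 0.22 for sng1 with adjusted p = 0.92). AT1G13195 lost its call in 11 of 19 alternative fits and 265737_at in 13 of 19. With 1 array left out, both kept their call only without tt4 replicate 3.

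AT4G16100 had the smallest called difference. Its signal was 373, 382 and 411 in the tt4 plants, 315, 324 and 336 in the sng1 plants and 361, 364 and 360 in the WT plants, so that the WT plants lay between the mutants. It was 1.20-fold higher in tt4 (difference 0.26 ± 0.04 SE, limma adjusted p = 0.042). This call was lost in 15 of 19 alternative fits. They include the fit without the 1201 probe sets at the floor on all 18 arrays. It was also lost with median centring and with the deposited signals. With 1 array left out, AT4G16100 kept its call only without tt4 replicate 1.

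The 6 remaining calls were all higher in tt4 and lay near the floor. AT5G34800, annotated as a pseudogene, had 68.1, 56.0 and 40.7 in the tt4 plants, whereas 2 of 3 sng1 plants were at the floor and the third had 26.9. In WT, 2 of 3 plants were at the floor and the other had 18.7. The difference was 1.5 ± 0.23 (SE, limma adjusted p = 0.042), and tt4 minus WT was 1.67 (adjusted p = 0.035). AT4G13450 had 35.3, 45.6 and 38.9 in the tt4 plants, with 2 of 3 sng1 plants at the floor and the other at 17.8. Its difference was 1.26 ± 0.19 (SE, limma adjusted p = 0.042).

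AT2G29170 had 35.4, 35.2 and 27.0 in the tt4 plants, while all 3 sng1 plants were at the floor, which makes it at least 2.02-fold higher in tt4 (limma adjusted p = 0.042). The unnamed 254450_at had 27.5, 23.1 and 22.6 in the tt4 plants with all 3 sng1 plants at the floor, at least 1.52-fold higher (limma adjusted p = 0.028). In AT2G25990 the tt4 plants had 33.7, 25.0 and 28.6, against 18.3 and 17.3 in 2 sng1 plants and the floor in the other, a difference of 0.75 ± 0.09 (SE, limma adjusted p = 0.014). In 246716_s_at, which the table pairs with several genes, the tt4 plants had 35.7, 31.4 and 25.2 and the highest sng1 plant had 16.5 (difference 0.91 ± 0.13 SE, limma adjusted p = 0.039). In all 6 the tt4 plants were above every sng1 and WT plant in CO. None of these 6 was called when the floor was set to 64, which lies above most of their signals, or when log2(signal + 16) was used. Signals set to the floor are equal, so they add no spread between plants. The SD of log2 signals in the sng1 plants was 0 for AT2G29170 and 254450_at. The SE and p-values of these 6 can therefore be too small. The loci of AT2G25990, AT4G13450 and AT2G29170 carry no symbol in the RefSeq table.

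By distance from WT, tt4 was the farther mutant for 8 of the 11 called probe sets. These include all the calls near the floor, where the floor can hide a distance between sng1 and WT. The count therefore does not show that tt4 departs more from WT. Of the 5 calls without a tt4 or sng1 plant in CO at the floor, tt4 was farther for AT1G13195 and 265737_at. The sng1 plants were farther for 267262_at, 252331_s_at and AT4G16100. Both calls of sng1 minus WT in CO (2 of 22746, 0.00879%) were 267262_at and 252331_s_at. Of the 5 calls of tt4 minus WT in CO (0.0220%), 4 were among the 11, namely AT5G34800, AT2G25990, 254450_at and AT1G13195. The other, the unnamed 247127_at, had 232, 223 and 259 in the tt4 plants, 186, 197 and 196 in the sng1 plants and 180, 164 and 162 in the WT plants. Its tt4 minus sng1 difference was 0.30 ± 0.06 (SE, limma adjusted p = 0.26).

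The same genotype contrast was measured in 6 other plants under UV, where 6 probe sets were called (0.0264%), 3 higher (0.0132%) and 3 lower (0.0132%). Of the 11 probe sets called in CO, 9 had the same sign under UV, 5 had separate plants in the same direction there and 3 were called there too. The share of same signs over all probe sets is not given here, so the 9 are only a description. For 267262_at the signals under UV were 2516, 2251 and 1853 in the tt4 plants and 702, 494 and 532 in the sng1 plants (difference 1.94, limma adjusted p = 0.0036). For 252331_s_at they were 632, 709 and 628 in the tt4 plants and 121, 151 and 117 in the sng1 plants (difference 2.35, limma adjusted p = 0.00021). For AT1G13195 they were 201, 189 and 227 in the tt4 plants and 338, 366 and 345 in the sng1 plants (difference -0.77, limma adjusted p = 0.035). In these 3 the genotypes did not overlap in either light (9.25% of all probe sets did not overlap under UV), and the difference between the lights was -0.31, 0.25 and 0.08 (limma adjusted p = 0.95, 0.97 and 1).

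The signals of 245218_s_at, called under UV, were 1184, 906 and 865 in the tt4 plants and 446, 473 and 438 in the sng1 plants, a difference of 1.11. Those of 245219_at were 2549, 2190 and 1896 in the tt4 plants and 1182, 1278 and 1249 in the sng1 plants, a difference of 0.83. The tt4 plants were again all above the sng1 plants. The unnamed 260973_at was called under UV with a difference of -1.72 and had 33.0, 23.6 and 28.6 in the tt4 plants in CO, against 44.1, 51.6 and 61.9 in the sng1 plants in CO, where its difference was -0.89 ± 0.19 (SE, limma adjusted p = 0.26).

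Most low-signal calls did not recur in these plants. The UV difference was 0.02 for AT2G25990, 0.04 for 254450_at, 0.10 for 246716_s_at and 0.10 for AT4G13450, each with overlapping plants. For AT2G29170 it was -0.55, with 20.3 in 1 tt4 plant and the floor in the others, against 32.1, 21.4 and 23.8 in the sng1 plants. AT5G34800 was the exception, with 29.3, 32.8 and 31.0 in the tt4 plants and all 3 sng1 plants at the floor, but its UV difference of 0.95 was not called. AT4G16100 had a UV difference of -0.07 and 265737_at one of -0.14, and in both every tt4 plant was below every sng1 plant. For the difference between lights, 7 of the 11 had an unadjusted p under 0.05 (5.43% of all probe sets had one), and none passed after adjustment (0.0044% of all did). The 11 were chosen by the CO difference that this quantity contains, so these counts are only a description.

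Across the table, 1465 probe sets had an unadjusted p under 0.05 in CO and 1261 (5.54%) had one under UV. Of the 1465, 80 also had one under UV with the same sign and 52 with the opposite sign.

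**Figure D2:**
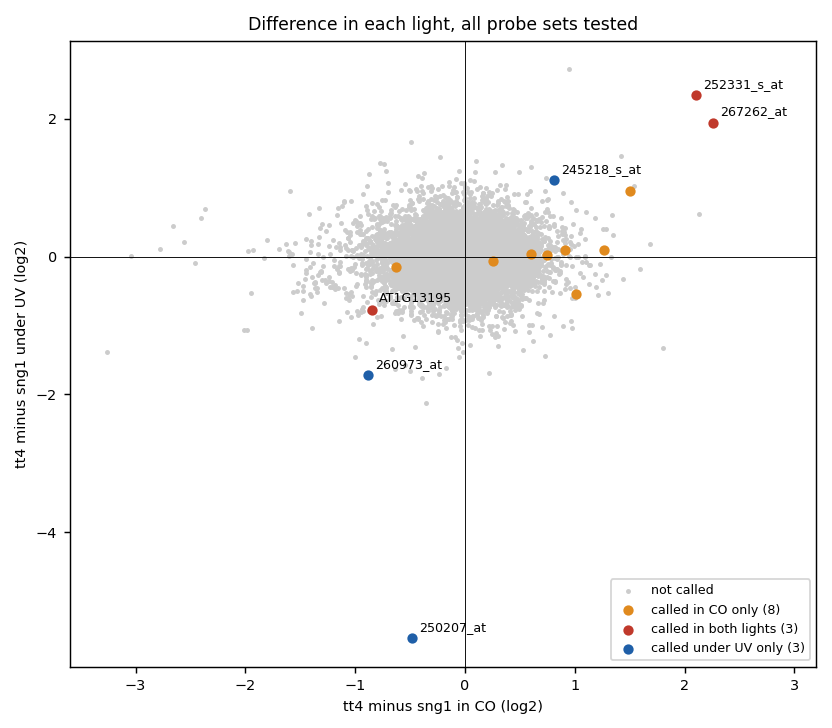
Difference of tt4 minus sng1 in CO (horizontal, log2) against the same difference under UV (vertical, log2) for all 22746 probe sets, with called probe sets coloured. The 3 called in both lights are 267262_at, 252331_s_at and AT1G13195, and 250207_at lies far down the vertical axis with a CO difference of -0.48.

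Next to the called probe sets, genes were taken in order of the unadjusted p among those whose plants did not overlap, and these all missed the threshold. On the higher side, SCPL43, a serine carboxypeptidase-like protein of the family that includes SNG1, had 53.8, 41.9 and 44.3 in the tt4 plants, 22.6, 25.5 and 27.9 in the sng1 plants and 40.7, 54.2 and 39.6 in the WT plants. The sng1 plants were the low ones, and the difference was 0.88 ± 0.14 (SE, limma adjusted p = 0.062). AT5G02180, which encodes a putative amino acid transporter, had 140, 144 and 105 in the tt4 plants and 69.9, 69.3 and 44.9 in the sng1 plants (difference 1.10, limma adjusted p = 0.087). AT1G53025 had a difference of 1.35 with 2 sng1 plants at the floor, AT5G62650 one of 0.36 and AT2G30105 one of 0.16, with adjusted p between 0.11 and 0.21 in limma. Under UV the plants overlapped for SCPL43 (difference 0.10) and AT5G02180 (difference 0.006). The tt4 plants were above the sng1 plants there for AT1G53025, AT5G62650 and AT2G30105 (differences 0.31, 0.13 and 0.06), but none of these was called.

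On the lower side the adjusted p of the 9 genes ran from 0.19 to 0.43. AT3G16960 was at the floor in all 3 tt4 plants and had 33.2, 30.3 and 26.7 in the sng1 plants, at least 1.87-fold lower in tt4. AT1G73066, AT1G49015, DFO (a gene needed for meiotic DNA double-strand breaks) and AT4G27250 also had low signals in both genotypes, with differences of -0.86, -1.02, -0.64 and -0.97. AT1G69580, a MYB-like transcription factor gene, had 95.1, 108 and 77.7 in the tt4 plants and 129, 156 and 152 in the sng1 plants (difference -0.64). AT5G11970 differed by -0.54, AT5G51220 by -0.47 and AT1G17160, a ribokinase gene, by -0.39. Of these 9, AT1G17160 alone also had separate plants under UV, with 502, 482 and 520 in the tt4 plants and 628, 566 and 620 in the sng1 plants (difference -0.27, unadjusted p = 0.0098).

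**Figure D3:**
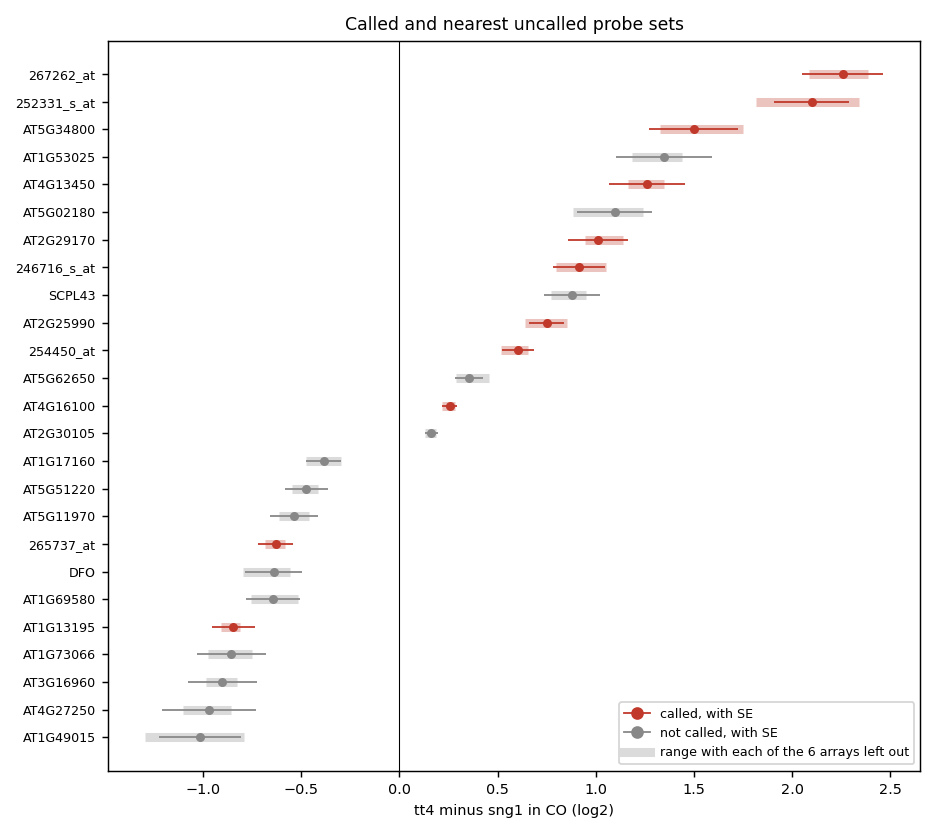
Difference of tt4 minus sng1 in CO (log2) for the 11 called probe sets and the 14 nearest genes that missed the threshold, as points with SE, over bands that span the difference when each of the 6 arrays is left out. No band crosses 0, and 267262_at and 252331_s_at lie farthest from it at 2.26 and 2.10.

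No measured member of any of the 22 gene lists or 20 symbol families with a measured member was called between tt4 and sng1 in CO. Only 0.0484% of all probe sets were called, and the gene lists held 62 measured probe sets for 374 entries. The absence of calls is thus near the share over all probe sets and does not show that these pathways are alike. Over all 22746 probe sets the median difference was 0, and 3.81% were higher and 2.63% lower at an unadjusted p under 0.05. The core flavonoid pathway had 5 measured members of 12 entries, with a median of 0.10 and 1 at an unadjusted p under 0.05. That member was CHIL, the chalcone isomerase-like protein that promotes flavonoid synthesis. Its signals were 87.1, 79.4 and 82.6 in the tt4 plants, 49.9, 55.5 and the floor in the sng1 plants and 71.4, 63.6 and 41.1 in the WT plants. The tt4 plants were above all others, and the difference was 1.23 ± 0.37 (SE, unadjusted p = 0.0055, limma adjusted p = 0.51). Without sng1 replicate 3, the plant at the floor, the difference was 0.66. Under UV the CHIL difference was -0.11, with 237 to 291 in the tt4 plants and 244 to 346 in the sng1 plants.

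The glycosyltransferases that finish flavonols differed less. AT1G06000, a flavonol 7-O-rhamnosyltransferase gene, had 162, 134 and 187 in the tt4 plants and 126, 148 and 110 in the sng1 plants (difference 0.33, limma adjusted p = 0.82). The flavonoid 3-O-glucosyltransferase UGT78D2 had a difference of -0.13 ± 0.17 and the flavonol 3-O-rhamnosyltransferase UGT78D1 one of 0.10 ± 0.16 (SE, limma adjusted p = 1 for each). Both changed sign when 1 tt4 array was left out. The fifth, UGT78D3, was at the floor on all 6 arrays.

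The anthocyanin branch had 5 measured members of 11 entries, with a median of -0.28 and none at an unadjusted p under 0.05. The spread between tt4 plants was large in this branch. DFR, dihydroflavonol reductase, had 98.9, 268 and 41.9 in the tt4 plants, 236, 102 and 160 in the sng1 plants and 158, 233 and 234 in the WT plants. The anthocyanin xylosyltransferase gene UF3GT had 18.5, 156 and the floor in the tt4 plants and 81.3, 34.6 and 29.3 in the sng1 plants. The anthocyanin 5-O-glucosyltransferase gene AT4G14090 had 39.1, 101 and 18.9 in the tt4 plants and 34.2, 31.9 and 49.9 in the sng1 plants. In these 3 genes tt4 replicate 2 was the highest and tt4 replicate 3 the lowest of all 6 plants. The anthocyanin malonyltransferase gene AT5MAT had 22.6, 45.4 and the floor in the tt4 plants and 53.5, 34.8 and 53.0 in the sng1 plants (difference -0.86 ± 0.41 SE, limma adjusted p = 0.79). The differences were -0.60 for DFR, -0.28 for UF3GT and 0.15 for AT4G14090, and each of these 3 changed sign without 1 of the tt4 arrays.

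On the sinapate side, 4 of 13 entries were measured, with a median of 0.05. UGT84A4, a hydroxycinnamate glucosyltransferase gene, had 63.6, 73.4 and 74.9 in the tt4 plants, 86.3, 84.4 and 83.9 in the sng1 plants and 101, 94.8 and 85.1 in the WT plants. The tt4 plants were the low ones, and the difference was -0.27 ± 0.12 (SE, unadjusted p = 0.044, limma adjusted p = 0.76). ALDH2C4, the aldehyde dehydrogenase that makes sinapic and ferulic acid, had 2705, 2967 and 2987 in the tt4 plants and 2617, 2603 and 2467 in the sng1 plants (difference 0.17, limma adjusted p = 0.91). UGT84A3, a relative that makes hydroxycinnamoyl glucose, had 913, 837 and 1345 in the tt4 plants and 1060, 807 and 986 in the sng1 plants (difference 0.09). The plants of both genotypes thus overlapped for UGT84A3, and the fourth member, UGT84A1, was at the floor on all 6 arrays.

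In the general phenylpropanoid and monolignol list, 6 of 19 entries were measured, with a median of -0.08 and none at an unadjusted p under 0.05. AT3G13610, the feruloyl-CoA hydroxylase gene of coumarin synthesis, had 31.2 in 1 tt4 plant and the floor in the others, against 69.5, 51.0 and 76.8 in the sng1 plants and 76.8, the floor and 230 in the WT plants. Its difference was -1.70 ± 0.80 (SE, unadjusted p = 0.053, limma adjusted p = 0.79). With a floor of 64 it was -0.13. UGT72E1, a glucosyltransferase of coniferaldehyde, had a difference of -0.16.

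Among 29 measured serine carboxypeptidase-like genes, 12 were above 0 and 14 below, the median was 0, and 3 had a higher and 1 a lower signal in tt4 at an unadjusted p under 0.05. Besides SCPL43, scpl50 had 409, 487 and 320 in the tt4 plants and 256, 270 and 311 in the sng1 plants (difference 0.52), and scpl47 differed by 0.64. SCPL49 had 3522, 3091 and 3493 in the tt4 plants and 4391, 3848 and 3939 in the sng1 plants (difference -0.27). The limma adjusted p of these 3 lay between 0.70 and 0.76. Under UV their plants overlapped and the signs were opposite, with differences of -0.25 for scpl50, -0.36 for scpl47 and 0.14 for SCPL49. Among 47 measured UGT glycosyltransferase genes, 17 were above 0 and 22 below. Of these, UGT85A3 was higher (difference 0.48) and UGT84A4 lower at an unadjusted p under 0.05.

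**Figure D4:**
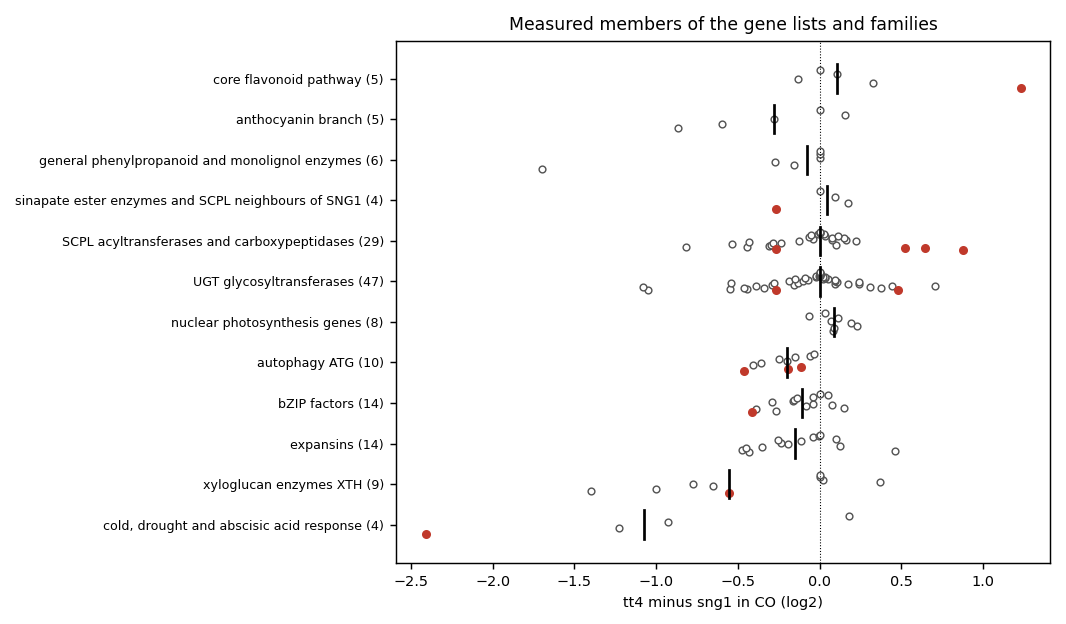
Difference of tt4 minus sng1 in CO (log2) for each measured member of 12 gene lists and families, with the number measured in brackets, filled points for an unadjusted p under 0.05 and bars for the median. No member was called after adjustment (0.0484% of all probe sets were). The 10 autophagy genes all lie below 0, and 7 of the 8 photosynthesis genes lie above it, with a median of 0.08.

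Outside phenylpropanoid metabolism, the 10 measured autophagy genes all had a difference below 0, with a median of -0.20. They were ATG3, a conjugating enzyme, and 9 genes of ATG8, the ubiquitin-like protein that the conjugation system attaches to the autophagosome membrane. APG8A had 807, 582 and 798 in the tt4 plants and 928, 932 and 1133 in the sng1 plants, so that every tt4 plant was below every sng1 plant (difference -0.46, unadjusted p = 0.017, limma adjusted p = 0.67). ATG8C differed by -0.19 and APG8H by -0.11 (limma adjusted p = 0.72 and 0.77). The count below 0 was 9 of 10 with median centring, 9 of 10 with the deposited signals, and 10 of 10 without any single array. In the other 6 plants, under UV, 8 of the 10 were above 0 and the median was 0.13.

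Over all 22746 probe sets, 11126 differences were above 0 and 9567 below. The bZIP transcription factors had 10 of 14 below 0 (median -0.11). BZIP60, which acts in the response to unfolded protein in the endoplasmic reticulum, had 788, 705 and 738 in the tt4 plants and 1020, 1026 and 930 in the sng1 plants, without overlap (difference -0.42, limma adjusted p = 0.74). Of the 14 expansins, which loosen the cell wall, 10 were below 0 (median -0.15). Of the 9 xyloglucan endotransglucosylase genes 5 were below 0 and 2 above (median -0.55). XTH16 had 648, 611 and 440 in the tt4 plants and 683, 841 and 956 in the sng1 plants (difference -0.55, unadjusted p = 0.043, limma adjusted p = 0.76), and XTH19 differed by -1.40. With a floor of 64 the median was -0.02 for the bZIP factors, 0 for the expansins and 0 for the xyloglucan genes. With each of the 6 arrays left out it ran from -0.14 to -0.0073 for the bZIP factors and from -0.25 to -0.06 for the expansins, and it was nearest to 0 in both without tt4 replicate 3. Of the 8 photosynthesis genes 7 were above 0 (median 0.08), and all 8 were with median centring (median 0.34) and with the deposited signals (median 0.27). The Calvin cycle gene SBPASE had 8225, 8288 and 8537 in the tt4 plants and 6940, 7961 and 6565 in the sng1 plants, and PRK had 10420, 9849 and 10310 in the tt4 plants and 8619, 9738 and 8517 in the sng1 plants. The tt4 plants were above the sng1 plants in both, with differences of 0.23 and 0.19 (limma adjusted p = 0.89 for each). In the plants under UV, 7 bZIP factors were above 0 and 5 below (median 0.02). The expansins had 5 above and 8 below there (median -0.05), and the xyloglucan genes 3 above and 5 below (median -0.0053). Of the photosynthesis genes, 6 were above 0 and 2 below under UV (median 0.04).

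Large differences were mostly negative and mostly not called. Of 181 probe sets with a difference of at least 2-fold, 43 were higher and 138 lower in tt4, 85 had overlapping plants, and 95 had an unadjusted p under 0.05, with 33 higher and 62 lower. Without tt4 replicate 1 there were 71 higher and 291 lower, without tt4 replicate 2 there were 79 higher and 138 lower, and without tt4 replicate 3 there were 82 higher and 181 lower. Among the 95, the sign under UV was the same for 53 and opposite for 39. The 20 named genes with the largest differences held 3 higher and 17 lower ones, and plants overlapped in 11 of the 20.

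The largest was OSM34, an osmotin-like protein of osmotic stress and defence, with 228, 81.5 and 117 in the tt4 plants, 1463, 1261 and 379 in the sng1 plants and 844, the floor and 252 in the WT plants. Every tt4 plant was below every sng1 plant, but the WT plants spanned both (difference -2.78 ± 1.26 SE, limma adjusted p = 0.77). COR15A, a protein of the chloroplast that protects membranes in the cold, had 3615, 673 and 102 in the tt4 plants, 5997, 4619 and 1328 in the sng1 plants and 4015, 1475 and 3626 in the WT plants. The genotypes overlapped, and the difference was -2.41 ± 1.07 (SE, unadjusted p = 0.043, limma adjusted p = 0.76). Its relative COR15B had 1182, 1627 and 198 in the tt4 plants and 1546, 2133 and 1479 in the sng1 plants (difference -1.23). Without tt4 replicate 3 the difference was -1.09 for COR15A and -0.29 for COR15B.

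AT3G53980 and AT2G37870, both of the lipid transfer protein superfamily, varied in the same way. AT3G53980 had 2769, 327 and 38.0 in the tt4 plants and 3106, 1150 and 537 in the sng1 plants (difference -1.93, limma adjusted p = 0.85). AT2G37870 had 2005, 61.3 and 70.5 in the tt4 plants and 2861, 895 and 207 in the sng1 plants (difference -1.98, limma adjusted p = 0.91). For both, replicate 1 was the highest plant within each mutant. AT2G04050, a transporter of the multidrug and toxic compound extrusion family, had 139, 50.1 and 127 in the tt4 plants, 409, 450 and 277 in the sng1 plants and 311, 64.5 and 477 in the WT plants (difference -1.95 ± 0.58 SE, unadjusted p = 0.0053, limma adjusted p = 0.51). Its genotypes also did not overlap under UV, where the difference was -0.53. The largest positive difference among these 20 was that of AT5G62360, with 1132, 2173 and 496 in the tt4 plants and 309, 385 and 370 in the sng1 plants (difference 1.60, limma adjusted p = 0.67). Apart from AT2G04050, the genes named here and in the paragraph above had overlapping plants under UV. Their UV differences were 0.11 for OSM34, 0.56 for COR15A and 0.04 for COR15B. They were 0.09 for AT3G53980, 0.08 for AT2G37870 and -0.18 for AT5G62360.

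**Figure D5:**
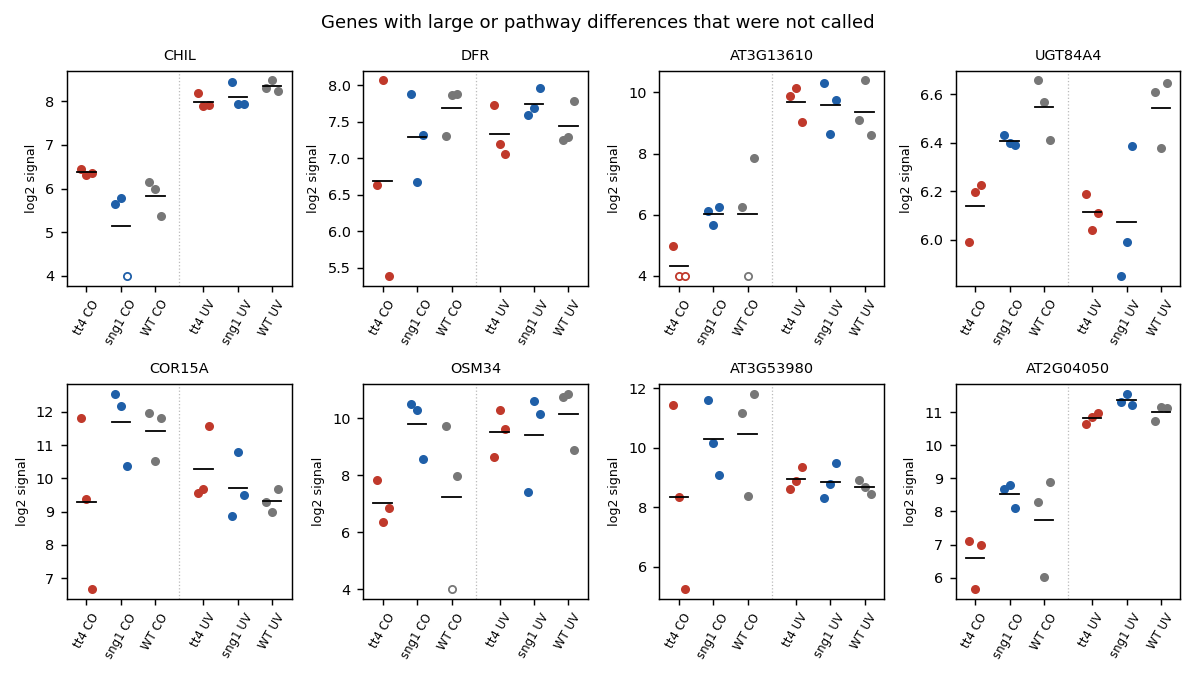
Log2 signal of 4 phenylpropanoid genes (top) and 4 genes with large uncalled differences (bottom) in the 3 plants of tt4, sng1 and WT in CO (left of the dotted line) and under UV (right of it), with open points at the floor and lines at group means. Vertical axes differ between panels and do not start at 0. COR15A and AT3G53980 spread widely within tt4, sng1 and WT in CO, with tt4 replicate 3 the lowest of the CO plants at 102 and 38.0.

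The surroundings of the mutated loci were read through gene order in the RefSeq assembly TAIR10.1. Of the 20 measured genes nearest to TT4, 10 on each side and up to 26 genes away, none was called. An unadjusted p under 0.05 was found for 1, LEP with a difference of -0.42. The differences of the 20 ran from -0.42 to 0.77. Of the 20 measured genes nearest to SNG1, up to 38 genes away, none was called, none had an unadjusted p under 0.05, and the differences ran from -0.57 to 0.39. Of these, AT2G22960 and AT2G22940 were at the floor in all tt4 and sng1 plants. Over all probe sets 0.0484% were called and 6.44% had an unadjusted p under 0.05 in limma. With 20 genes each, these counts cannot show that the regions are unaffected. The 6 calls with 1 gene lay on chromosomes 1 (1), 2 (2), 4 (2) and 5 (1).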

How the data were processed

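The deposited values were intensities, 1 linear signal per probe set and array, although a log2 signal had been foreseen. No source used here names the authors' software, but a mean trimmed by 2% at both ends was 500 on each array. Of 22810 probe sets, 64 controls were removed after quantile normalisation, signals under 16 were set to 16, and log2 was taken (log2 values were computed here from the deposited intensities). Limma 3.58.1 under R 4.3.3 fitted 6 group means to all 18 arrays (12 residual degrees of freedom), with Benjamini-Hochberg adjustment over 22746 probe sets, and was tested on simulated data. The 5 comparisons were tt4 minus sng1 in CO and under UV, their difference, and each mutant minus WT in CO. Figures were drawn in matplotlib.

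Names came from the platform annotation and RefSeq TAIR10.1: 13513 probe sets had 1 gene, 503 several and 8730 were not listed and are unnamed here. The members, the 27 gene lists and the 25 families were chosen with earlier results of these data known. Genes were named by rule: called genes with separate plants, filled to 10 each way by unadjusted p, calls in both lights, up to 4 members per list, and the 5 largest unnamed calls each way. Further list and family members, the largest differences and 245219_at were added with their values in view. The number of arrays limits the precision.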

Additional observations from a re-analysis of the deposited data

Results flagged for a closer look

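One probe set differed between the lights in its tt4 minus sng1 difference (1 of 22746, 0.0044%). The unnamed 250207_at had 159, 181 and 221 in the tt4 plants and 8560, 9115 and 8044 in the sng1 plants under UV, and 243, 264 and 275 in the tt4 plants and 623, 316 and 244 in the sng1 plants in CO. The tt4 minus sng1 difference was -5.53 under UV and -0.48 ± 0.26 in CO (SE, limma adjusted p = 0.83). The difference between them was -5.05 ± 0.36 (SE, limma adjusted p = 9.6e-05). The WT plants had 8207, 8697 and 9416 under UV and 494, 431 and 592 in CO, so that under UV only the tt4 plants were low. The gene behind this probe set is not known here and could be a mutated gene itself.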

How the results depend on the processing

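The 11 calls between tt4 and sng1 in CO became 6 with arrays centred on their medians, 4 with the deposited signals as given, 5 with a floor of 64, 2 with log2(signal + 16), 3 with a mean log2 of at least 6, 21 with array weights, and 0 with the arrays of the groups compared only. With the replicate block there were 3 calls. Samples with the same number deviated together at most weakly between tt4 and sng1 in CO (correlations of 0.19, 0.02 and -0.07). Of the 3 tt4 arrays, 1 was closest to its own number, and the number was not used as a pair. Against WT in CO, tt4 replicate 2 was closest to its own number (correlation 0.39), while tt4 replicates 1 and 3 were not. Leaving out 1 array gave 4 to 20 calls, and 267262_at and 252331_s_at were called each time. Alternatives added after seeing the data gave 0 calls with the 9 CO arrays only, 1 (267262_at) when probe sets at the floor on all 9 were also left out, and 0 with the 6 arrays compared only, without the probe sets at the floor on all 6. Under UV the 6 calls became 2 with the groups compared only and ran from 8 to 12 with 1 array left out. The 1 call for the difference between lights became 2 with median centring, with a floor of 64, with the groups compared only and with the replicate block, and 1 to 6 with 1 array left out. For tt4 minus WT, the 5 calls became 3 with a floor of 64 and 3 without probe sets at the floor on all arrays. They became 0 with log2(signal + 16), with a mean log2 of at least 6 and with the groups compared only. With the replicate block and with the 9 CO arrays only there were also 0. Leaving out 1 array gave 6 to 16 calls. Of the original 5 probe sets, 1, 2 and 1 kept their call without WT replicate 1, 2 or 3, and 1, 2 and 5 kept it without tt4 replicate 1, 2 or 3. For sng1 minus WT, the 2 calls became 5 with median centring, 8 with the deposited signals, 4 with log2(signal + 16), 9 with array weights, 0 with the groups compared only and with the 9 CO arrays only, and 3 to 21 with 1 array left out. Fits with fewer arrays have fewer residual degrees of freedom, and where groups are left out the spread also comes from fewer groups. The cause of the changed counts was not tested.

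The sign turned for 6 named genes, none of them called. With 1 array left out, the difference ran from -0.32 to 0.014 for UGT78D2, from -0.023 to 0.21 for UGT78D1, from -1.29 to 0.053 for DFR, from -1.34 to 0.30 for UF3GT, from -0.48 to 0.73 for AT4G14090 and from -0.11 to 0.23 for UGT84A3. With a floor of 64, UF3GT had a difference of 0.31. Signals near the floor limit the calls, since 6 of the 11 held a sng1 plant at it.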
